A study of Homo sapiens with 24 samples.

Results

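The genes described here write and erase methyl groups on histone lysines or belong to the Polycomb complexes, and they were followed across a knockdown of KDM2A in neural cells grown from a human embryonic stem cell line. The set holds 54 genes, taken by name as Polycomb subunits and as histone lysine methyltransferases and demethylases assigned to lysines other than H3K36. KDM2A itself demethylates H3K36. Assignment to another lysine does not exclude that a member acts on H3K36 as well. All 54 were among the 61544 genes of the organoid count table, and all 54 were among the 19704 organoid genes that passed the filter on low counts. The count table of the neural progenitor cells (NPCs) lists 10221 genes and holds 36 of the 54, and all 36 were among its 9860 tested genes.

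RNA sequencing was carried out on 24 libraries of the established stem cell line H9, of which 15 came from NPCs and 9 from cerebral organoids at day 30. Each system had a group labelled WT that received a scrambled short hairpin RNA (NC) and a pair of groups labelled KDM2A knockdown that received the hairpin sh1 or sh4, with 5 libraries in each NPC group and 3 in each organoid group. All groups had been transduced with lentivirus as stem cells, at a multiplicity of infection of 20, and selected with puromycin at 1 µg/ml before they were differentiated, so the controls carried a vector too. Whether replicates were separate cultures is not stated in the labels, and the p-values therefore cover only the spread among these libraries, which may be technical.

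Levels are counts per M of library counts after TMM scaling (CPM), and differences are log2 fold changes with their standard errors (SE) from edgeR's quasi-likelihood test. A gene is said to have risen or fallen, or to have passed, where the Benjamini-Hochberg adjusted p over all tested genes of that system was under 0.05. It is said to be called where the fold change was also at least 2-fold, a log2 fold change of 1, as in the study's design.

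The listed genes took 12.7 to 20.2 M counts in an NPC library, and organoid libraries held 15.9 to 18.9 M counts. In the NPCs KDM2A fell to 92.1 ± 4.15 CPM with sh1 and 95.1 ± 4.21 CPM with sh4, from 186 ± 15.3 CPM in NC (SD, n = 5 each; edgeR adjusted p = 5.12e-12 and 7.36e-12), and its level in the organoids was 100.5 ± 4.00 CPM with NC, 110.4 ± 6.97 in the libraries labelled sh1 and 101.0 ± 4.89 in those labelled sh4 (SD, n = 3 each). The organoid libraries labelled sh1 and sh4 therefore showed no measured loss of KDM2A (log2 fold change 0.14 and 0.01, edgeR adjusted p = 0.127 and 0.926), and directions given for them do not rest on one. Their cell type markers also stood apart. The summed level of 10 mesenchyme markers was 3040 to 4450 CPM with NC, 20900 to 23200 CPM for the label sh1 and 39800 to 48800 CPM for the label sh4, and 11 neuron markers summed to 3150 to 3410, 1290 to 1770 and 243 to 946 CPM. NEUROD6, a neuronal transcription factor, had 6 to 25 counts in the NC libraries, too few to be tested, and 0 counts in every library labelled sh1 or sh4. Of the 11 tested neuron markers, 4 were lower and 7 did not pass for the label sh1, and 10 were lower and 1 did not pass for the label sh4. All 11 pluripotency markers were lower in both sets of libraries. In the NPCs, PAX6, a transcription factor that defines dorsal neural progenitors, measured 17.0 CPM with NC, 28.5 with sh1 and 3.17 with sh4, while SOX1, another defining progenitor marker, measured 13, 33.4 and 50.2 CPM. Of 9 neural progenitor markers tested there, 6 were higher and 3 lower with sh1, and 7 were higher and 2 lower with sh4. Of 7 neuron markers, 2 were higher and 5 lower with sh1. With sh4, 2 neuron markers were higher, 2 were lower and 3 did not pass. Markers of other cell types differed in the NPCs too. Of 8 mesenchyme markers tested there, 6 were higher and 2 lower with sh1, and 7 were higher and 1 lower with sh4. LUM, a matrix proteoglycan, was at 9.89, 27.2 and 126 CPM in NC, sh1 and sh4, while COL3A1, a fibrillar collagen and the most abundant of the 8, fell from 6157 to 4230 and 4508 CPM. The summed level of the 8 was 6410 to 7140 CPM in NC, 4870 to 5920 in sh1 and 5770 to 6620 in sh4. All 4 tested markers of pigment epithelium were lower with each hairpin, with sums of 109 to 161, 62.3 to 68.3 and 29.1 to 41.2 CPM.

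Polycomb repressive complex 2 (PRC2) places methyl groups on lysine 27 of histone H3 through the catalytic subunit EZH2 or its paralog EZH1, with EED and SUZ12 as the other core subunits. Polycomb repressive complex 1 (PRC1) carries the ubiquitin ligases RING1 and RNF2, one PCGF subunit and, in its canonical forms, a CBX subunit that reads the methylated lysine. Methylation of H3K4 marks active promoters and enhancers and is written by KMT2A to KMT2D and the SETD1 enzymes. KMT2E is counted with the H3K4 methyltransferases by its name only, and no activity is claimed for it. Methylation of H3K9 marks heterochromatin, and methylation of H3K79 by DOT1L lies over transcribed gene bodies. In neural development these systems keep genes of other lineages silent and set the timing of neurogenesis, and EZH2 is generally high in dividing progenitors while EZH1 predominates in postmitotic cells.

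CpG is the dinucleotide that the CXXC zinc finger of KDM2A binds when it is not methylated, and it was counted next to the start sites of these genes. KMT2A and KMT2B carry a CXXC zinc finger of the same family. RefSeq promoters (GRCh38.p14) were found for 50 of the 54 genes by symbol, 68 promoters in all, and CBX2, CBX8, SETD1B and DOT1L did not match. In the 250 bases before the start, the 68 promoters held a median of 25.5 CG dinucleotides (range 1 to 50), against 16 (range 0 to 59) in 22199 promoters of protein-coding genes. Among the roles, the median was 37 for the 9 promoters of PRC2 core genes, 29 for 17 promoters of PRC1 genes, 30.5 for 6 promoters of H3K4 methyltransferases and 25 for 4 of H3K4 demethylases. It was 23 for 7 promoters of PRC2 accessory genes and for 14 of H3K9 demethylases, 22.5 for 8 of H3K9 methyltransferases and 21 for 3 of H3K27 demethylases. The comparison took in all protein-coding genes, tested or not, while all 54 members were tested in the organoids. Promoters of tested genes alone were not compared, so the higher median is not shown to be particular to the members. These counts describe the DNA only, since binding of KDM2A was not analysed here. The promoters of EZH2 and EZH1 are shown because these paralogs moved in opposite directions in the NPCs, and those of PHF19 and JARID2 because they were the accessory subunits with the highest and the lowest log2 fold change. EZH2, PHF19 and JARID2 have 2 RefSeq promoters each, and the one shown has the start nearest the 5′ end of the annotated gene. The other promoters hold 39, 21 and 34 CG, so that PHF19 and JARID2 have no fixed order in CG content. Each sequence runs 5′ to 3′ on the gene's strand up to the base before the start, and capitals mark every CG dinucleotide.
EZH2, chr7:148884292-148884541, minus strand, 38 CG: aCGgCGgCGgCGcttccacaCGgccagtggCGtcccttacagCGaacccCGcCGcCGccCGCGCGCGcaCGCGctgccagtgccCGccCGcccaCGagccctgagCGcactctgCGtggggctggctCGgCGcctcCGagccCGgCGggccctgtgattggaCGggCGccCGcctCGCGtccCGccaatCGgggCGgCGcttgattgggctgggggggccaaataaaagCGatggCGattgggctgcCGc
EZH1, chr17:42745041-42745290, minus strand, 26 CG: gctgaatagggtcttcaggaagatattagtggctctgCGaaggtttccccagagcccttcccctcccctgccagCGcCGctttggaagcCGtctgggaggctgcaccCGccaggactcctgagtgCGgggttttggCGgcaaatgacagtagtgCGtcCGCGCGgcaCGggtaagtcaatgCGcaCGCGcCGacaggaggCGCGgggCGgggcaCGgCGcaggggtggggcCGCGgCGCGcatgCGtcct
PHF19, chr9:120877189-120877438, minus strand, 39 CG: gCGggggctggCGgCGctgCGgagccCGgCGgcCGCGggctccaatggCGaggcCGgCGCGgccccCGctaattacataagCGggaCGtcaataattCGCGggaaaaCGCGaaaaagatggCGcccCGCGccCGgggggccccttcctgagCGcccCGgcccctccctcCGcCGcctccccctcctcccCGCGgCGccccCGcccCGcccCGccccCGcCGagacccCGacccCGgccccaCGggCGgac
JARID2, chr6:15245819-15246068, plus strand, 22 CG: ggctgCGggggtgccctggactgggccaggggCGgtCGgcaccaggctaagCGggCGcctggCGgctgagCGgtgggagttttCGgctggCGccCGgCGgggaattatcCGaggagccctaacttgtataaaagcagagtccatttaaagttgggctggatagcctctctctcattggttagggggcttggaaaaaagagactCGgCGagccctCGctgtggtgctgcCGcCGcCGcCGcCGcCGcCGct

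In the NPCs, the RNAs of PRC2 subunits moved in both directions: EZH2, EED, RBBP7, PHF19 and MTF2 rose with each hairpin, and EZH1 and SUZ12 fell with each. The canonical PRC1 subunits CBX2, CBX6 and CBX8, the ligase RING1 and every measured H3K4 methyltransferase of the set fell. No member reached the 2-fold threshold. Of the 36 members listed for the NPCs, 15 were higher and 21 lower than NC with sh1, and 10 were higher, 19 lower and 7 not past the test with sh4. These counts have to be read against the table, in which 50.1% of the tested genes were higher and 49.2% lower with sh1, and 44% were higher and 44.1% lower with sh4, so that passing the test does not set the members apart. The median log2 fold change of the members was -0.213 with sh1 and -0.163 with sh4, beside 0.11 and 0.031 over all tested genes.

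The fold threshold separated the members from the table in a descriptive sense only: 0 of 36 members were called with either hairpin in edgeR, while 18.4% of all tested genes were called with sh1 and 18.1% with sh4. At an unadjusted p under 0.05 the members numbered 36 with sh1 and 29 with sh4, and DESeq2 called 0 and 1. Scaling by library size alone called 2 and 1, the stricter filter 1 and 1, and relative log expression scaling 0 and 1. CBX8, at -0.990 and -0.995, lay at the threshold. Library size alone moved the median of all NPC genes by -0.137 with sh1 and -0.144 with sh4. It took the share of higher genes among all calls from 34.3% to 23.7% and from 36.2% to 26.7%, and it called 1957 genes with each hairpin in place of 1815 and 1786. The same NC libraries served both hairpins, so the values of sh1 and sh4 stand side by side and are not independent of each other. With 50.1% of its genes higher and 49.2% lower with sh1, the NPC table looks like a list chosen because its genes differed between sh1 and NC, by a rule that the sources used here do not give. A pass in it, and its adjusted p, then says little about a gene beyond its being listed. The same limit holds where hairpin libraries are said below not to overlap with NC in the NPCs. The share of all tested genes whose groups do not overlap was not counted in either system, so such statements describe single genes only. NPC levels are relative to the listed genes, and 18 members were not analysed here in the NPCs: JARID2, AEBP2, PHF1, PCGF1, PCGF5, CBX7, BCORL1, KMT2A, SETD1A, KDM5A, KDM5B, SETDB2, KDM3A, KDM4B, KDM4C, KDM4D, KDM7A and PHF8. The table lists 66.7% of the members and 62.5% of the protein-coding genes that were tested in the organoids.

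**Figure D1:**
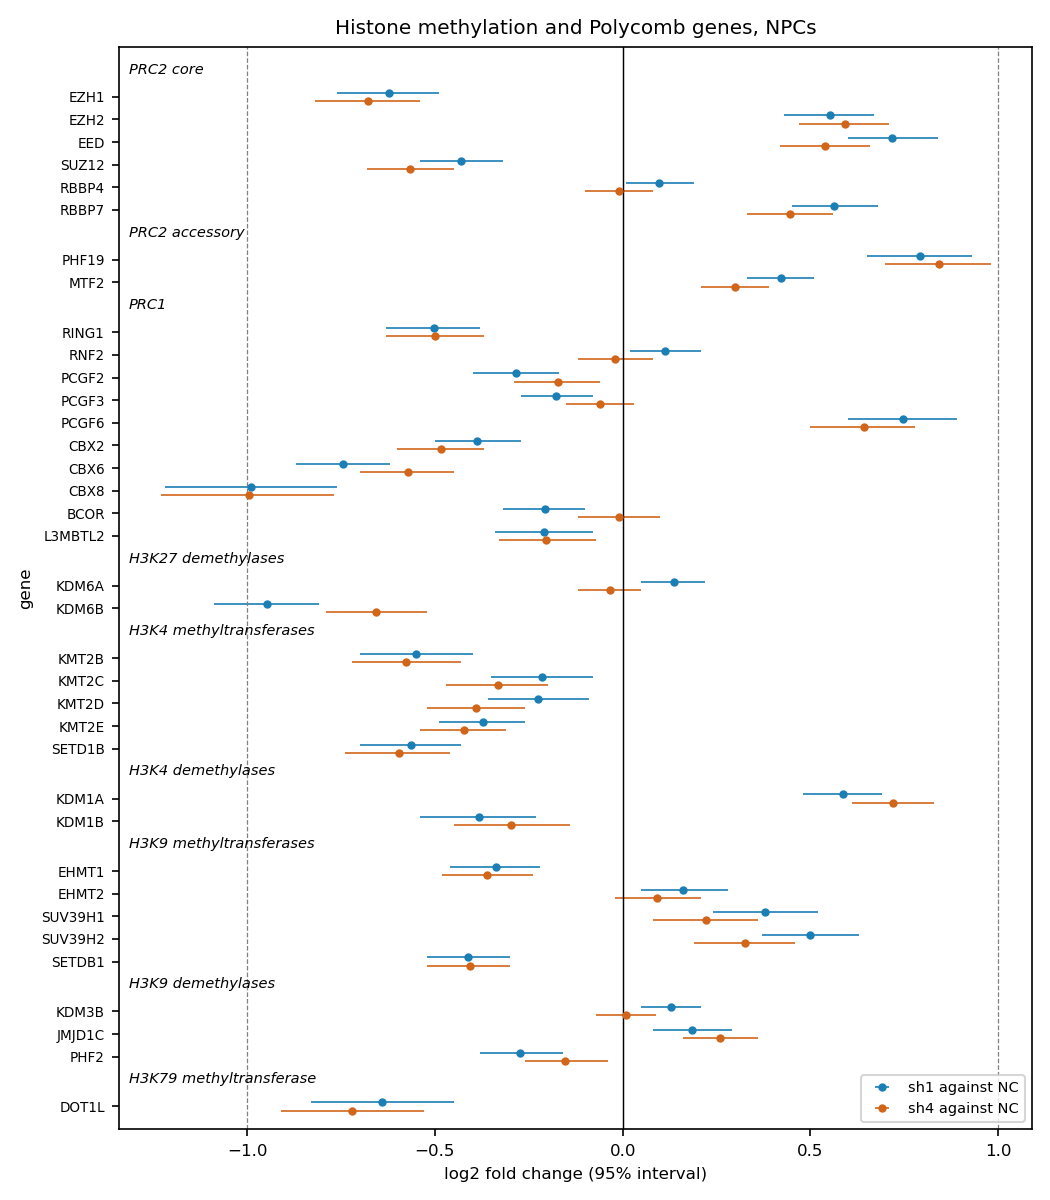
Log2 fold change with its 95% interval (x axis) for the 36 members listed in the NPC table (y axis, by role), with sh1 and sh4 each against NC, 5 libraries per group, and dashed lines at a log2 fold change of 1 in size. All points lie inside the dashed lines, CBX8 is lowest at -0.990 and -0.995 and PHF19 highest at 0.79 and 0.84, and with library size alone RBBP4 and RNF2 with sh1 and KDM3B with each hairpin change sign.

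EZH2, the main H3K27 methyltransferase of dividing cells (chromosome 7, 148807383 to 148884321, GRCh38), measured 102, 112, 106, 108 and 115 CPM in the 5 NC libraries, 169, 154, 151, 164 and 158 CPM with sh1 and 161, 168, 186, 159 and 145 CPM with sh4. All 10 knockdown libraries lay above all NC libraries. EZH2 rose by 0.55 on the log2 scale with sh1 (SE 0.057, edgeR adjusted p = 4.16e-08) and by 0.59 with sh4 (SE 0.057, edgeR adjusted p = 1.43e-08). EZH1, the paralog with weaker methyltransferase activity (chromosome 17, 42700275 to 42745049), measured 55.04, 55.3, 57.6, 60.1 and 59.7 CPM in the 5 NC libraries, 43.4, 35.8, 39.03, 36.6 and 32.5 CPM with sh1 and 36.7, 33.9, 35.3, 38.01 and 35.8 CPM with sh4. Here the order was the reverse, with no knockdown library reaching the lowest NC library. EZH1 fell by 0.62 on the log2 scale with sh1 (SE 0.065, edgeR adjusted p = 5.03e-08) and by 0.68 with sh4 (SE 0.065, edgeR adjusted p = 1.38e-08). Per kilobase of exon, the NC libraries held 23.98 ± 1.13 CPM per kb of EZH2 and 8.24 ± 0.342 CPM per kb of EZH1 (SD, n = 5).

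The partners of EZH2 did not move as a block. EED, the subunit that binds the methylated lysine and stimulates the enzyme, measured 31.7, 30.2, 29.8, 30.2 and 31.4 CPM in the 5 NC libraries, 52.1, 52.4, 47.8, 50.8 and 49.0 CPM with sh1 and 44.3, 43.9, 50.1, 44.1 and 40.5 CPM with sh4. EED rose by 0.72 on the log2 scale with sh1 (SE 0.057, edgeR adjusted p = 1.07e-09) and by 0.54 with sh4 (SE 0.057, edgeR adjusted p = 5.21e-08). No library of a hairpin overlapped NC. SUZ12, which holds the complex together and is needed for its stability, measured 129, 123, 116, 116 and 118 CPM in the 5 NC libraries, 84.9, 97.3, 97.3, 85.4 and 82.4 CPM with sh1 and 84.8, 78.97, 85.1, 79.9 and 78.4 CPM with sh4. SUZ12 fell by 0.43 on the log2 scale with sh1 (SE 0.054, edgeR adjusted p = 5.48e-07) and by 0.57 with sh4 (SE 0.054, edgeR adjusted p = 1.32e-08). Its groups did not overlap with NC. The histone chaperone RBBP7, shared between PRC2 and several deacetylase complexes, measured 326, 374, 327, 362 and 416 CPM in the 5 NC libraries, 524, 544, 517, 535 and 547 CPM with sh1 and 485, 491, 488, 495 and 500.3 CPM with sh4. RBBP7 rose by 0.56 on the log2 scale with sh1 (SE 0.054, edgeR adjusted p = 1.69e-08) and by 0.45 with sh4 (SE 0.054, edgeR adjusted p = 3.59e-07). Every knockdown library lay above every NC library. Its paralog RBBP4 changed by 0.10 with sh1 (edgeR adjusted p = 0.0354) and had a value of -0.01 with sh4 (edgeR adjusted p = 0.825). RBBP4 with sh1 no longer passed with library size alone (-0.04), with relative log expression scaling (edgeR adjusted p = 0.0501) and without NC replicate 1, 2, 3 or 4 or sh1 replicate 2 or 5 (edgeR adjusted p 0.0517 to 0.0933), and 18% of its exon bases are shared with SYNC.

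Both measured accessory subunits of PRC2 rose. PHF19, a Polycomb-like protein with a Tudor domain and a PHD finger that recruits PRC2 to chromatin, measured 35.95, 42.02, 33.9, 41.8 and 45.6 CPM in the 5 NC libraries, 70.9, 64.7, 66.7, 69.1 and 74.02 CPM with sh1 and 74.1, 72.9, 67.3, 72.9 and 70.7 CPM with sh4. PHF19 rose by 0.79 on the log2 scale with sh1 (SE 0.068, edgeR adjusted p = 3.36e-09) and by 0.84 with sh4 (SE 0.068, edgeR adjusted p = 1.19e-09), the highest value of any member for either hairpin, and neither hairpin overlapped with NC. MTF2, another Polycomb-like protein that binds CpG-rich DNA, rose as well (0.42 and 0.30). In the same libraries, 22 of 25 cell cycle genes were higher with sh1 and 20 with sh4, 3 were lower with each, and their summed level was 4010 to 4410 CPM with NC, 5710 to 5950 with sh1 and 5070 to 5520 with sh4. The list was led by the replication genes CDC6 (log2 fold change 1.58 and 1.37), RRM2 (1.24 and 1.29) and CCNE2 (1.26 and 1.41). Pluripotency markers moved as well, with 9 of 10 higher with each hairpin (summed level 1320 to 1450, 2130 to 2300 and 2090 to 2290 CPM), while POU5F1, the defining one, fell (-1.83 and -1.39). The part that these lists, or the mesenchyme and pigment markers given above, had in the members' NPC values was not tested.

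**Figure D2:**
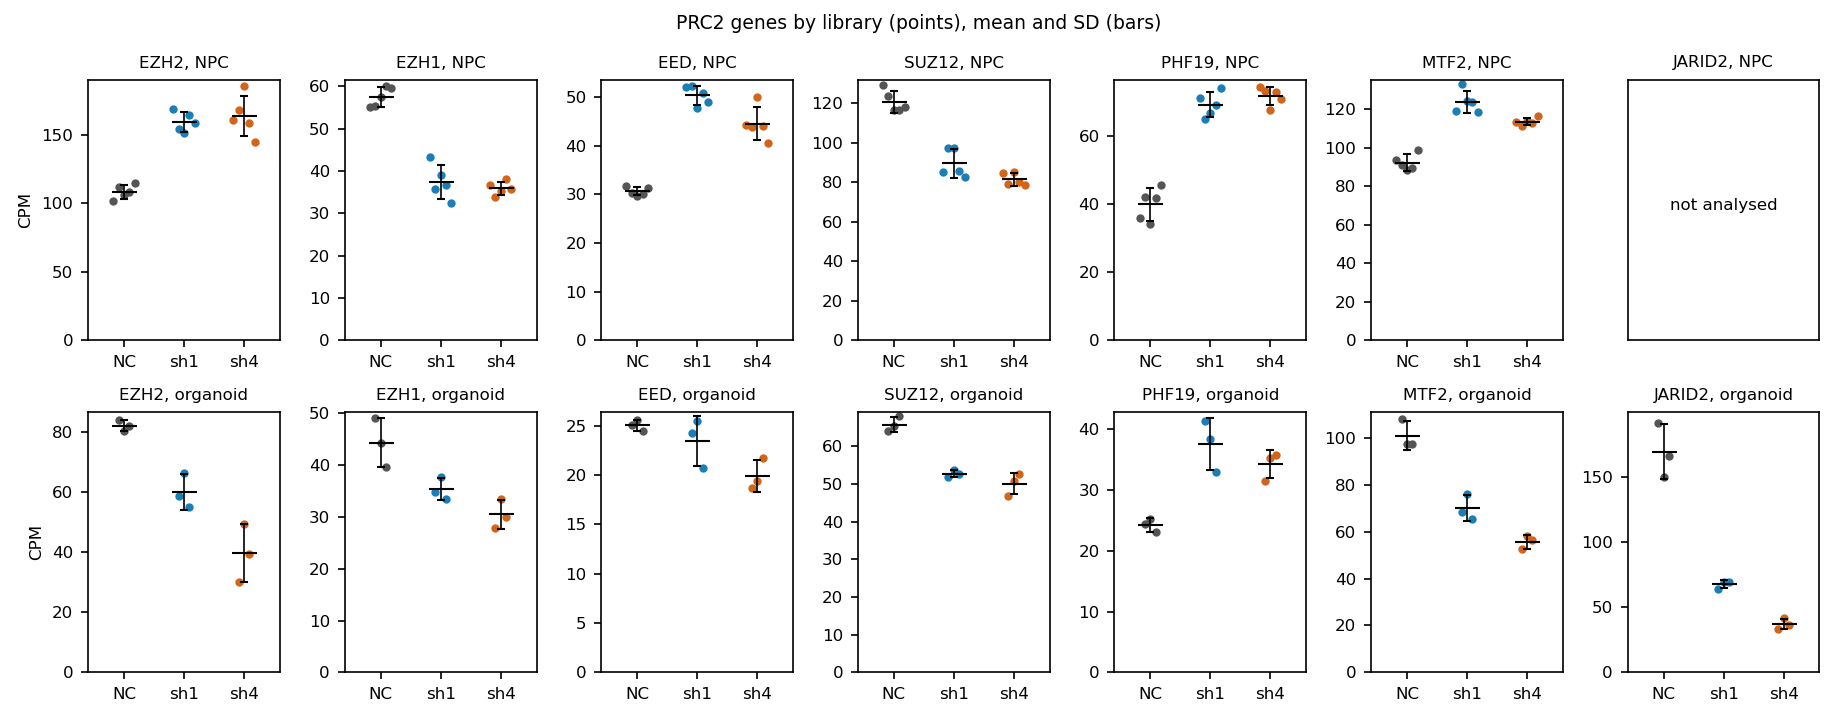
CPM per library (points, y axis) with mean and SD (bars) in the groups NC, sh1 and sh4 (x axis) for EZH2, EZH1, EED, SUZ12, PHF19, MTF2 and JARID2, NPCs in the upper row with 5 libraries per group and organoids in the lower row with 3. EZH2 stands above NC in all 10 NPC knockdown libraries and below NC in all organoid libraries labelled sh1 or sh4, and JARID2, not analysed here in the NPCs, has its highest values in the organoid NC libraries.

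Most PRC1 members fell, the 3 measured CBX subunits among them, and 1 subunit of a variant form rose with each hairpin. Among the 10 measured PRC1 members, 2 were higher and 8 lower with sh1 (median -0.247), and 1 was higher, 6 were lower and 3 did not pass with sh4. CBX8, a chromodomain reader of methylated H3K27, measured 27.4, 26.1, 24.9, 25.1 and 21.8 CPM in the 5 NC libraries, 12.7, 9.495, 11.9, 13.7 and 15.3 CPM with sh1 and 11.7, 13.7, 14.4, 10.3 and 12.9 CPM with sh4. CBX8 fell by 0.99 on the log2 scale with sh1 (SE 0.11, edgeR adjusted p = 1.17e-07) and by 0.995 with sh4 (SE 0.11, edgeR adjusted p = 9.82e-08), just short of 2-fold. All its knockdown libraries lay below all NC libraries. CBX6, another CBX reader, measured 119, 103, 108, 105 and 89.7 CPM in the 5 NC libraries, 63.2, 57.4, 65.5, 64.9 and 61.7 CPM with sh1 and 72.3, 71.1, 71.5, 69.5 and 67.8 CPM with sh4. CBX6 fell by 0.75 on the log2 scale with sh1 (SE 0.061, edgeR adjusted p = 1.68e-09) and by 0.57 with sh4 (SE 0.061, edgeR adjusted p = 5.36e-08). The groups did not overlap with NC either. CBX2, which compacts chromatin (-0.39 and -0.49), and the ligase RING1 (-0.50 and -0.50) fell too.

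PCGF6, the subunit that defines the variant complex PRC1.6 and takes part in silencing germline genes, was the one PRC1 member that rose with each hairpin. It measured 23.01, 24.7, 22.1, 23.9 and 25.5 CPM in the 5 NC libraries, 36.97, 45.01, 38.1, 39.6 and 40.3 CPM with sh1 and 35.3, 39.2, 41.01, 35.4 and 35.5 CPM with sh4. PCGF6 rose by 0.75 on the log2 scale with sh1 (SE 0.067, edgeR adjusted p = 6.53e-09) and by 0.64 with sh4 (SE 0.067, edgeR adjusted p = 4.7e-08), with no overlap with NC. L3MBTL2, another subunit of PRC1.6, fell (-0.21 and -0.20), and its sh4 values overlapped with NC. PCGF2, the canonical PCGF subunit MEL18, fell (-0.28 and -0.17), although 45.7% of its exon bases are shared with other genes, CISD3 among them, so that its count is uncertain. The ligase RNF2 (0.11 and -0.02), PCGF3 (-0.18 and -0.06) and BCOR, a corepressor of PRC1.1 (-0.21 and -0.01), passed with sh1 and did not pass with sh4, and RNF2 with sh1 turned to -0.02 under library size alone and did not pass without NC replicate 4 or sh1 replicate 2 (edgeR adjusted p = 0.0517 and 0.06). KDM2B, the paralog of KDM2A that brings PRC1.1 to CpG islands, acts on H3K36 and is not a member.

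The H3K27 demethylases parted. KDM6B, an inducible demethylase that opens Polycomb targets during differentiation, measured 112, 127, 105, 118 and 120.1 CPM in the 5 NC libraries, 59.9, 51.3, 59.3, 65.5 and 65.7 CPM with sh1 and 76.3, 73.6, 67.9, 77.8 and 73.3 CPM with sh4. KDM6B fell by 0.95 on the log2 scale with sh1 (SE 0.066, edgeR adjusted p = 1.8e-10) and by 0.66 with sh4 (SE 0.065, edgeR adjusted p = 2.22e-08). Again the knockdown libraries all stood below NC. KDM6A, the X-linked paralog that belongs to the KMT2C and KMT2D complexes, was higher by 0.14 with sh1 (edgeR adjusted p = 0.00424, with a log2 value of 0.001 under library size alone) and had a value of -0.03 with sh4 (edgeR adjusted p = 0.446).

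All 5 measured H3K4 methyltransferases fell with each hairpin, with a median log2 fold change of -0.372 with sh1 and -0.422 with sh4. SETD1B, a writer of H3K4 methylation at promoters, measured 84.7, 77.1, 83.9, 77.8 and 69.8 CPM in the 5 NC libraries, 50.2, 48.7, 52.3, 57.6 and 56.8 CPM with sh1 and 49.1, 47.3, 56.9, 52.9 and 53.6 CPM with sh4. SETD1B fell by 0.57 on the log2 scale with sh1 (SE 0.066, edgeR adjusted p = 2.11e-07) and by 0.60 with sh4 (SE 0.066, edgeR adjusted p = 9.49e-08). Neither group overlapped with NC. KMT2B, the trithorax-family writer at CpG-rich promoters, fell (-0.55 and -0.58), as did KMT2E (-0.37 and -0.42), KMT2C (-0.22 and -0.33) and KMT2D (-0.23 and -0.39). With sh1, the KMT2C and KMT2D values overlapped with NC. Of 11 tested genes for the other subunits of COMPASS, the complexes in which these enzymes other than KMT2E work, and of the KDM1A complex, 8 were higher and 3 lower with each hairpin.

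The H3K4 demethylases KDM1A and KDM1B moved apart. KDM1A, or LSD1, which removes H3K4 methylation at enhancers of stem cells and progenitors, measured 383, 357, 366, 345 and 362 CPM in the 5 NC libraries, 555, 525, 557, 553 and 530.2 CPM with sh1 and 638, 584, 651, 580.1 and 529 CPM with sh4. KDM1A rose by 0.59 on the log2 scale with sh1 (SE 0.051, edgeR adjusted p = 4.23e-09) and by 0.72 with sh4 (SE 0.051, edgeR adjusted p = 2.23e-10). Every knockdown library lay above NC, and at 66.6 ± 2.54 CPM per kb (SD, n = 5) in the NC libraries it had the highest level per length of the 36 members. Its relative KDM1B fell (-0.38 and -0.30).

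No H3K9 enzyme changed by more than 0.50 in size on the log2 scale with either hairpin. Of 5 H3K9 methyltransferases, 3 were higher and 2 lower with sh1, and 2 were higher, 2 lower and 1 not past the test with sh4. SUV39H2 (0.50 and 0.33) and SUV39H1 (0.38 and 0.22), writers of trimethylated H3K9 at constitutive heterochromatin, rose, although SUV39H1 with sh4 did not pass with library size alone (0.08, edgeR adjusted p = 0.3) and 20.3% of its exon bases are shared with another gene. SETDB1, the writer at transposable elements (-0.41 and -0.41), and EHMT1, the partner of the euchromatic writer EHMT2 (-0.34 and -0.36), fell. EHMT2 rose by 0.16 with sh1 and did not pass with sh4 (0.09). Among the H3K9 demethylases, JMJD1C rose (0.18 and 0.26), PHF2 fell (-0.27 and -0.15), and KDM3B was higher with sh1 (0.13) and not past the test with sh4 (0.01). With library size alone KDM3B turned to -0.01 with sh1 and to -0.14 with sh4, and JMJD1C with sh1 no longer passed (0.05, edgeR adjusted p = 0.341).

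DOT1L, the H3K79 methyltransferase, measured 243, 195, 227, 202 and 159 CPM in the 5 NC libraries, 142, 117, 148, 136 and 115 CPM with sh1 and 130.0, 121, 134, 119.5 and 117 CPM with sh4. DOT1L fell by 0.64 on the log2 scale with sh1 (SE 0.092, edgeR adjusted p = 3.2e-06) and by 0.72 with sh4 (SE 0.092, edgeR adjusted p = 7.06e-07). Both groups lay wholly below NC. Both tested DOT1L partner genes were lower with each hairpin. Of the other pathway lists, 14 tested genes for further PRC1 subunits and for H2A deubiquitination split into 7 higher and 6 lower with sh1 and 6 higher and 4 lower with sh4, 9 heterochromatin partner genes into 6 higher and 3 lower and into 6 higher and 2 lower, and 8 other histone lysine methylation enzymes into 4 higher and 4 lower and into 4 higher and 3 lower. Both tested genes of other PRC2 subunits were higher with each hairpin. Of the HOX genes, classic Polycomb targets, 2 were tested in the NPCs, and both, HOXB1 (log2 fold change 1.60 and 1.77) and HOXA2 (2.84 and 2.77), were called higher. ASXL3 (1.20 and 1.70), a subunit of the H2A deubiquitinase, CDYL2 (1.02 and 1.82), a chromodomain protein, and MECOM (2.06 and 2.14), a zinc finger protein of the PRDM family, were also called higher.

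Between the hairpins, 6 members were higher with sh1 than with sh4, 3 were lower and 27 did not pass, beside 13.1% higher and 14.5% lower over all tested genes. In this comparison 0 members were called in edgeR, at 4.6% of all genes called, while 17 members had an unadjusted p under 0.05 and DESeq2 called 0. The median of the members was 0.041 and that of all genes 0.004. The widest gap was that of KDM6B, which stood 0.29 lower on the log2 scale with sh1 (edgeR adjusted p = 0.00239). Leaving out single libraries took the count of higher members to between 2 and 8, and EED, RNF2, MTF2, SUV39H2, KDM3B and CBX6 did not pass in at least 1 of these fits.

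In the organoid libraries labelled sh4, most members were lower than in NC, JARID2, KDM7A and KMT2A by the most. JARID2 was called in both comparisons with NC. PHF19, CBX6 and RING1 were higher in both sets. Of 54 members, 5 were higher, 19 lower and 30 not past the test in the libraries labelled sh1, beside 25.1% of all tested genes higher and 21.6% lower. In those labelled sh4, 6 were higher, 39 lower and 9 not past the test, beside 34.5% of all genes higher and 33.4% lower. The median log2 fold change of the members was -0.163 and -0.585, against 0.019 and -0.006 over all genes.

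Past 2-fold, 1 of 54 members was called in the libraries labelled sh1, where 20% of all genes were called, and 9 of 54 in those labelled sh4, where 35.5% were called. Of these 9, 8 were lower and 1 higher. Scaling by library size alone moved the median of all genes by -0.044 and -0.273 and took the share of higher genes among all sh4 calls from 56.4% to 43.3%. It called 21 of 54 members in place of 9 for the label sh4, beside 7375 of 19704 tested genes in place of 6998. The lower share of members called for that label therefore did not hold under this scaling. Under it the 39 lower members became 42 and the 6 higher became 2. The 19 lower members of the libraries labelled sh1 became 12 without sh1 replicate 1.

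Some organoid values crossed the test's threshold when 1 library was left out, with the direction kept. In the libraries labelled sh1 these were KDM6B (whichever of the 6 libraries was left out), EZH2 and AEBP2 (without NC replicate 1, 2 or 3 or sh1 replicate 1 or 3), EZH1 and BCORL1 (without NC replicate 1 or 2 or sh1 replicate 1 or 3), SUV39H2 (without NC replicate 3 or sh1 replicate 1 or 3) and JMJD1C (without NC replicate 1 or sh1 replicate 1), with edgeR adjusted p from 0.0533 to 0.143. In those labelled sh4 they were RBBP7 (without NC replicate 1 or 2), SETDB1 (without NC replicate 1 or 3 or sh4 replicate 1 or 2), RING1 (without NC replicate 3 or sh4 replicate 3) and AEBP2 (without sh4 replicate 2), with edgeR adjusted p from 0.0507 to 0.0982.

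These directions come from libraries in which KDM2A was not lower and in which the markers of several cell types differed. Neural progenitor markers, 13 in all, summed to 3810 to 4380 CPM with NC, 2950 to 3060 CPM for the label sh1 and 1460 to 1890 CPM for the label sh4. Of these 13, 9 and 11 were lower and 1 was higher in each. Of 11 neuron markers, 4 and 10 were lower. Of 10 mesenchyme markers, 9 were higher in each and 1 was lower for the label sh4. Choroid plexus markers, 7 in all, summed to 257 to 395, 1010 to 2140 and 4520 to 9490 CPM. Of these 7, 5 and 6 were higher and 1 was lower in each. Of 9 endothelium and macrophage markers, 6 and 8 were higher and 1 was lower in each. The 11 pluripotency markers, all lower in both, summed to 1100 to 1650 CPM with NC, 151 to 163 CPM for the label sh1 and 147 to 193 CPM for the label sh4. AFP, a fetal liver and yolk sac protein chosen after its values were seen, stood at 96.2 ± 124, 4569 ± 2300 and 28430 ± 19100 CPM (SD, n = 3 each). In bulk RNA, fewer cells of a type and less RNA per cell cannot be told apart. The part that these markers had in the members' values was not tested.

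**Figure D3:**
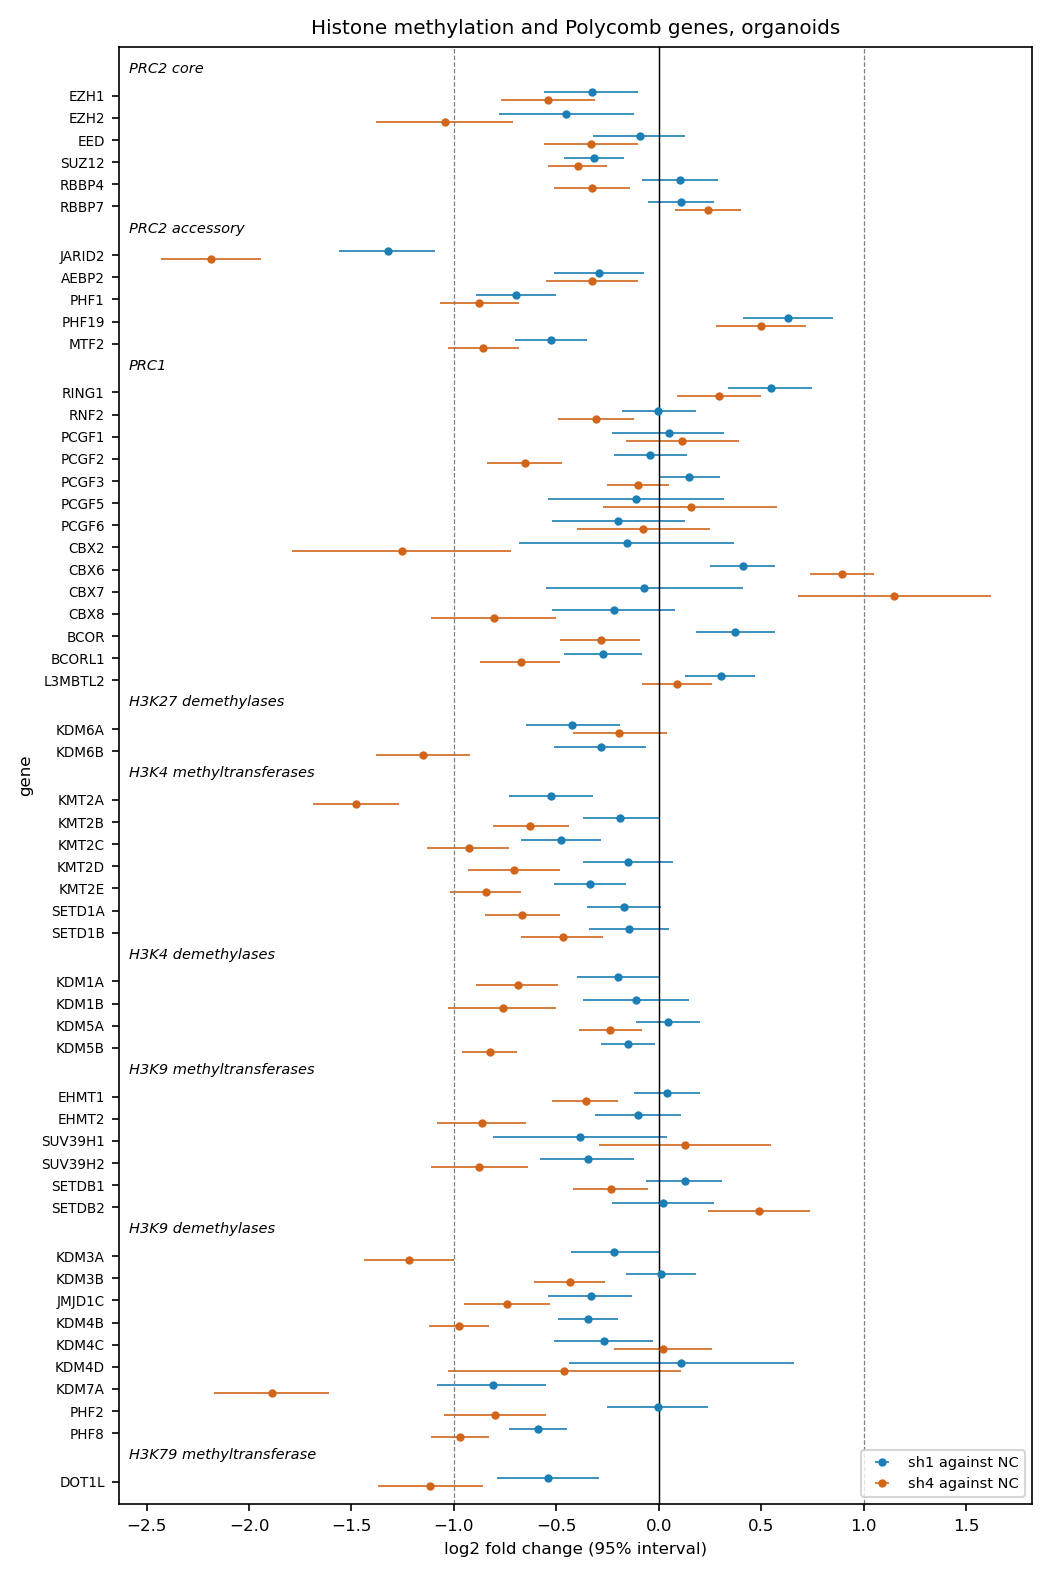
Log2 fold change with its 95% interval (x axis) for all 54 members in the organoids (y axis, by role), libraries labelled sh1 and sh4 each against NC, 3 libraries per group, and dashed lines at a log2 fold change of 1 in size. JARID2 lies left of the dashed line in both comparisons (-1.32 and -2.19), most sh4 points lie left of 0, and RBBP7 in the libraries labelled sh4 changes sign with library size alone.

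JARID2, a PRC2 accessory subunit that brings the complex to its targets in stem cells (chromosome 6, 15246296 to 15522040), measured 192, 150.1 and 166 CPM in the 3 NC libraries, 64.3, 69.3 and 69.5 CPM in those labelled sh1 and 33.6, 41.8 and 36.2 CPM in those labelled sh4. The groups were fully separated, with NC highest and the libraries labelled sh4 lowest. JARID2 fell by 1.32 on the log2 scale in the libraries labelled sh1 (SE 0.1, edgeR adjusted p = 1.34e-05) and by 2.19 in those labelled sh4 (SE 0.11, edgeR adjusted p = 4.4e-07). In the NC organoids JARID2 had the third highest level per length of the 54 members, 28.2 ± 3.50 CPM per kb (SD, n = 3), after KDM1A (50.7 ± 0.696) and RBBP4 (30.97 ± 1.79). Its promoter is shown above.

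EZH2 measured 83.99, 80.5 and 82.1 CPM in the 3 NC libraries, 58.6, 66.6 and 55.1 CPM in those labelled sh1 and 30.3, 49.5 and 39.6 CPM in those labelled sh4. Each library labelled sh1 or sh4 lay below each NC library. EZH2 fell by 0.45 on the log2 scale in the libraries labelled sh1 (SE 0.15, edgeR adjusted p = 0.0308) and by 1.05 in those labelled sh4 (SE 0.15, edgeR adjusted p = 0.000177). The sh4 value dropped to -0.879 without sh4 replicate 1, short of 2-fold. EZH1 measured 49.1, 44.3 and 39.6 CPM in the 3 NC libraries, 34.8, 37.6 and 33.4 CPM in those labelled sh1 and 27.9, 33.5 and 29.9 CPM in those labelled sh4. EZH1 fell by 0.33 on the log2 scale in the libraries labelled sh1 (SE 0.1, edgeR adjusted p = 0.0239) and by 0.54 in those labelled sh4 (SE 0.1, edgeR adjusted p = 0.001). It too showed no overlap with NC. SUZ12 measured 63.9, 65.2 and 67.9 CPM in the 3 NC libraries, 51.8, 53.7 and 52.6 CPM in those labelled sh1 and 46.9, 50.7 and 52.5 CPM in those labelled sh4. SUZ12 fell by 0.32 on the log2 scale in the libraries labelled sh1 (SE 0.064, edgeR adjusted p = 0.00292) and by 0.39 in those labelled sh4 (SE 0.064, edgeR adjusted p = 0.000412). All NC libraries were highest. Among the remaining core subunits, EED (-0.09 and -0.33) and RBBP4 (0.10 and -0.33) fell in the libraries labelled sh4 and did not pass in those labelled sh1, and RBBP7 passed there in the other direction (0.24), turning to -0.03 with library size alone.

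PHF19 went against the other accessory subunits. It measured 24.4, 25.3 and 23.1 CPM in the 3 NC libraries, 41.4, 38.4 and 32.99 CPM in those labelled sh1 and 31.6, 35.4 and 35.8 CPM in those labelled sh4. PHF19 rose by 0.63 on the log2 scale in the libraries labelled sh1 (SE 0.099, edgeR adjusted p = 7e-04) and by 0.50 in those labelled sh4 (SE 0.099, edgeR adjusted p = 0.0014). Its NC libraries were the lowest, although with library size alone the sh4 value was 0.23 (edgeR adjusted p = 0.128). PHF1, a further Polycomb-like protein, measured 67.4, 73.3 and 60.8 CPM in the 3 NC libraries, 42.4, 40.1 and 41.9 CPM in those labelled sh1 and 34.1, 35.9 and 39.7 CPM in those labelled sh4. PHF1 fell by 0.70 on the log2 scale in the libraries labelled sh1 (SE 0.087, edgeR adjusted p = 0.000195) and by 0.88 in those labelled sh4 (SE 0.088, edgeR adjusted p = 1.64e-05), without overlap with NC. MTF2 (-0.53 and -0.86) and AEBP2, a zinc finger subunit of the JARID2-containing complex (-0.29 and -0.33), fell in both.

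Among 14 PRC1 members, 4 were higher, 1 lower and 9 not past the test in the libraries labelled sh1, and 3 were higher, 6 lower and 5 not past the test in those labelled sh4. The CBX subunits parted from each other. CBX2 measured 79.2, 84.1 and 84.3 CPM in the 3 NC libraries, 76.01, 84.8 and 61.5 CPM in those labelled sh1 and 22.9, 50.5 and 30.4 CPM in those labelled sh4. The sh4 values were the lowest and the sh1 values overlapped with NC, and the log2 fold change was -0.16 in the libraries labelled sh1 (edgeR adjusted p = 0.613) and -1.25 in those labelled sh4 (SE 0.24, edgeR adjusted p = 0.00109). CBX7, the CBX reader that predominates in embryonic stem cells, measured 7.73, 9.28 and 5.98 CPM in the 3 NC libraries, 7.84, 6.098 and 7.95 CPM in those labelled sh1 and 21.3, 14.1 and 15.7 CPM in those labelled sh4. It was the one member called higher, by 1.15 in the libraries labelled sh4 (SE 0.21, edgeR adjusted p = 0.000842), with -0.07 and overlapping groups in those labelled sh1 (edgeR adjusted p = 0.802). The CBX7 call was lost with library size alone, without NC replicate 3 and without sh4 replicate 1, down to a value of 0.859, and 21.6% of its exon bases are shared with other genes.

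CBX6 measured 48.98, 54.4 and 47.2 CPM in the 3 NC libraries, 67.8, 63.4 and 69.1 CPM in those labelled sh1 and 96.4, 91.5 and 91.8 CPM in those labelled sh4. CBX6 rose by 0.41 on the log2 scale in the libraries labelled sh1 (SE 0.07, edgeR adjusted p = 0.00116) and by 0.89 in those labelled sh4 (SE 0.071, edgeR adjusted p = 4.07e-06). The groups were in full order, NC lowest and sh4 highest. RING1 measured 41.4, 41.2 and 39.9 CPM in the 3 NC libraries, 61.9, 61.97 and 55.1 CPM in those labelled sh1 and 43.8, 51.7 and 54.9 CPM in those labelled sh4. RING1 rose by 0.55 on the log2 scale in the libraries labelled sh1 (SE 0.091, edgeR adjusted p = 0.00102) and by 0.30 in those labelled sh4 (SE 0.091, edgeR adjusted p = 0.016). NC was lowest, but with library size alone the sh4 value was 0.03 (edgeR adjusted p = 0.852). BCOR, the PRC1.1 corepressor, was higher in the libraries labelled sh1 (0.37, edgeR adjusted p = 0.00599) and lower in those labelled sh4 (-0.28, edgeR adjusted p = 0.015). CBX8 (-0.22 and -0.81), PCGF2 (-0.04 and -0.66) and RNF2 (-0.001 and -0.31) fell in the libraries labelled sh4, BCORL1 fell in both (-0.27 and -0.67), and L3MBTL2 rose in those labelled sh1 (0.30 and 0.09). PCGF1 (0.05 and 0.12), PCGF3 (0.15 and -0.10), PCGF5 (-0.11 and 0.16) and PCGF6 (-0.20 and -0.08) passed in neither.

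KDM6B measured 145, 149.5 and 141 CPM in the 3 NC libraries, 122, 118 and 118 CPM in those labelled sh1 and 54.9, 75.7 and 65.7 CPM in those labelled sh4. KDM6B fell by 0.28 on the log2 scale in the libraries labelled sh1 (SE 0.099, edgeR adjusted p = 0.0394) and by 1.15 in those labelled sh4 (SE 0.1, edgeR adjusted p = 7.56e-06). The groups stood in full order with sh4 lowest. KDM6A fell by 0.42 in the libraries labelled sh1 and did not pass in those labelled sh4 (-0.19, edgeR adjusted p = 0.121).

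All 7 H3K4 methyltransferases fell in the libraries labelled sh4 (median -0.708), and 3 of the 7 fell in those labelled sh1. KMT2A, the trithorax homolog that keeps HOX genes active, measured 232, 237 and 207 CPM in the 3 NC libraries, 149.8, 162 and 157 CPM in those labelled sh1 and 70.0, 85.9 and 87.04 CPM in those labelled sh4. KMT2A fell by 0.53 on the log2 scale in the libraries labelled sh1 (SE 0.091, edgeR adjusted p = 0.00124) and by 1.48 in those labelled sh4 (SE 0.093, edgeR adjusted p = 1.25e-06). NC, sh1 and sh4 formed separate steps downward. Of its exon bases, 18.9% are shared with other genes. KMT2C (-0.48 and -0.93) and KMT2E (-0.33 and -0.84) fell in both. KMT2B (-0.19 and -0.63), KMT2D (-0.15 and -0.71), SETD1A (-0.17 and -0.67) and SETD1B (-0.15 and -0.47) passed in the libraries labelled sh4 and not in those labelled sh1. Of 34 HOX genes tested, 28 were higher for the label sh1, and 29 were higher and 1 lower for the label sh4. Over all tested genes, 25.1% and 34.5% were higher. The summed HOX levels were 69.9 to 77.8 CPM with NC, 353 to 433 and 268 to 479 CPM. The filter keeps a gene that is high in a single group, so HOX genes scarcely counted in NC could enter through the other groups. The HOX counts are therefore descriptions. The examples by rule were HOXC6 (log2 fold change 3.75 and 4.05), HOXB3 (1.93 and 1.54) and HOXB7 (3.01 and 3.95).

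The 4 H3K4 demethylases passed in no case in the libraries labelled sh1 and all fell in those labelled sh4 (median -0.726). KDM5B, a JmjC demethylase of trimethylated H3K4 (-0.15 and -0.83), KDM1B (-0.11 and -0.76) and KDM1A (-0.20 and -0.69) lay close together, and KDM5A (0.04 and -0.24) moved less.

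Of 9 H3K9 demethylases, 4 fell in the libraries labelled sh1 and 7 in those labelled sh4 (median -0.797), and none rose in either by edgeR. KDM7A, a JmjC demethylase of H3K9 and H3K27, measured 57.1, 58.1 and 56.4 CPM in the 3 NC libraries, 30.9, 33.9 and 32.99 CPM in those labelled sh1 and 15.7, 18.3 and 12.4 CPM in those labelled sh4. KDM7A fell by 0.81 on the log2 scale in the libraries labelled sh1 (SE 0.12, edgeR adjusted p = 0.000471) and by 1.89 in those labelled sh4 (SE 0.12, edgeR adjusted p = 1.5e-06). Its groups were in full order with sh4 lowest. KDM3A, a demethylase of H3K9 that is induced in hypoxia, measured 179, 154 and 166 CPM in the 3 NC libraries, 124, 144 and 161 CPM in those labelled sh1 and 67.5, 71.4 and 74.99 CPM in those labelled sh4. It did not pass in the libraries labelled sh1 (-0.22, edgeR adjusted p = 0.0942), which overlapped with NC, and fell by 1.22 in those labelled sh4 (SE 0.099, edgeR adjusted p = 4.79e-06).

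PHF8, the demethylase whose loss causes an X-linked intellectual disability, measured 83.8, 84.1 and 80.6 CPM in the 3 NC libraries, 51.7, 57.4 and 56.1 CPM in those labelled sh1 and 42.5, 43.5 and 40.9 CPM in those labelled sh4. PHF8 fell by 0.59 on the log2 scale in the libraries labelled sh1 (SE 0.063, edgeR adjusted p = 7.93e-05) and by 0.97 in those labelled sh4 (SE 0.064, edgeR adjusted p = 1.53e-06), with no overlap among the groups. KDM4B (-0.34 and -0.97) and JMJD1C (-0.33 and -0.74) fell in both, and PHF2 (-0.01 and -0.80) and KDM3B (0.01 and -0.44) in the libraries labelled sh4. KDM4C (-0.27 and 0.02) and KDM4D (0.11 and -0.46), the member with the lowest level per length in the NC organoids (0.804 ± 0.014 CPM per kb, SD, n = 3), passed in neither.

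Among the H3K9 methyltransferases, SUV39H2 fell in both (-0.35 and -0.88), and EHMT2 (-0.10 and -0.86), EHMT1 (0.04 and -0.36) and SETDB1 (0.13 and -0.24) fell in the libraries labelled sh4. SETDB2 was higher there (0.02 and 0.49, with a sh4 value of 0.21 under library size alone), and SUV39H1 passed in neither (-0.39 and 0.13). DOT1L measured 149, 147 and 135 CPM in the 3 NC libraries, 101, 98.8 and 96.7 CPM in those labelled sh1 and 54.4, 78.5 and 65.8 CPM in those labelled sh4. DOT1L fell by 0.54 on the log2 scale in the libraries labelled sh1 (SE 0.11, edgeR adjusted p = 0.00335) and by 1.12 in those labelled sh4 (SE 0.11, edgeR adjusted p = 1.85e-05). The groups lay in separate steps, and the sh4 value became -0.991 without sh4 replicate 1. Exon bases shared with other genes make up 16.3% of L3MBTL2, 13.4% of SETDB1 and 11.5% of DOT1L, so their counts are uncertain too.

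The other genes of these pathways also leaned to lower levels in the libraries labelled sh4. Of 25 further PRC1 and H2A deubiquitination genes, 5 were higher and 11 lower in the libraries labelled sh1, and 2 higher and 17 lower in those labelled sh4, PHC1, a canonical PRC1 subunit, among them (-1.03 and -1.88). All 3 other PRC2 genes were lower in those labelled sh4. Of 17 COMPASS and KDM1A complex genes, 0 and 2 were higher and 5 and 10 lower, and of 13 heterochromatin partners 1 and 1 were higher and 5 and 9 lower. Of 12 other histone lysine methylation enzymes, 3 and 4 were higher, SMYD2 (1.17 and 1.23) and MECOM (2.24 and 1.17) among them, and 5 and 7 were lower, with PRDM16 (-1.06 and -1.76), a regulator of radial glia. Of 6 DOT1L partner genes, 1 and 0 were higher and 2 and 3 lower. Cell cycle genes numbered 25, of which 0 were higher and 6 lower in the libraries labelled sh1 and 1 higher and 14 lower in those labelled sh4, with PLK1, a mitotic kinase, at -1.04 and -1.33, and their summed levels were 1810 to 2180, 1430 to 1930 and 1150 to 1510 CPM.

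Compared directly, 37 members were higher in the libraries labelled sh1 than in those labelled sh4, 5 were lower and 12 did not pass, against 25.1% of all tested genes higher and 24.8% lower. The median was 0.406, and 0.03 over all genes. All 7 H3K4 methyltransferases, all 4 H3K4 demethylases and 7 of 9 H3K9 demethylases were higher in the libraries labelled sh1, with CBX6 (-0.48), CBX7 (-1.22), SUV39H1 (-0.52), SETDB2 (-0.47) and KDM4C (-0.29) lower. At 19% of all genes called, 4 members were called: CBX7, CBX2 (1.10), KDM7A (1.08) and KDM3A (1.01). Each of these calls was lost under at least 1 other fit: KDM3A in 7 of 13 (down to 0.878), CBX2 without sh1 replicate 2 or sh4 replicate 1 (down to 0.874), KDM7A without sh4 replicate 3 (0.942) and CBX7 with library size alone (-0.976). With library size alone the median of all genes moved by 0.229 and the share of higher genes among all calls went from 41.2% to 57.3%.

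Whether the NPCs and the organoids differed was tested directly, by subtracting the organoid effect, averaged over both hairpins, from the NPC effect, for the 36 members measured in both. The PRC2 catalytic subunit gave the widest gap: EZH2 differed by 1.33 (95% interval 1.09 to 1.58, edgeR adjusted p = 3.38e-10), rising in the NPCs and falling in the organoids. KDM1A differed by 1.11 (95% interval 0.94 to 1.28, edgeR adjusted p = 2.03e-11), MTF2 by 1.07 (95% interval 0.92 to 1.21, edgeR adjusted p = 1.28e-12) and SUV39H2 by 1.04 (95% interval 0.83 to 1.24, edgeR adjusted p = 1.17e-09). CBX6 differed in the opposite sense, by -1.30 (95% interval -1.48 to -1.12, edgeR adjusted p = 2.06e-12), with a fall in the NPCs and a rise in the organoids. Of the 36, 17 were higher in this contrast, 6 lower and 13 did not pass, beside 38.6% higher and 40% lower over 10028 genes tested in both systems, and 5 were called, where 34.4% of those genes were. The median was 0.184, against -0.016 over all genes.

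Short of 2-fold, EED (0.85), PCGF6 (0.85), JMJD1C (0.77) and EHMT2 (0.62) passed with a more positive value in the NPCs. So did KMT2C (0.44), SUV39H1 (0.44), KDM6A (0.37), RBBP7 (0.34), KDM3B (0.29), PHF19 (0.265), RNF2 (0.21), KMT2E (0.20) and RBBP4 (0.17). A more negative value was found for RING1 (-0.91), CBX8 (-0.47), L3MBTL2 (-0.39), SETDB1 (-0.34) and SETD1B (-0.26), which passed too. EZH1 did not pass, at -0.20 (95% interval -0.41 to 0.00, edgeR adjusted p = 0.0679): it fell in both systems. The NPC table looks selected and the organoid libraries differed in cell type markers, and the systems differ in tissue, library number and measured KDM2A loss, so these sources of a difference cannot be told apart.

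**Figure D4:**
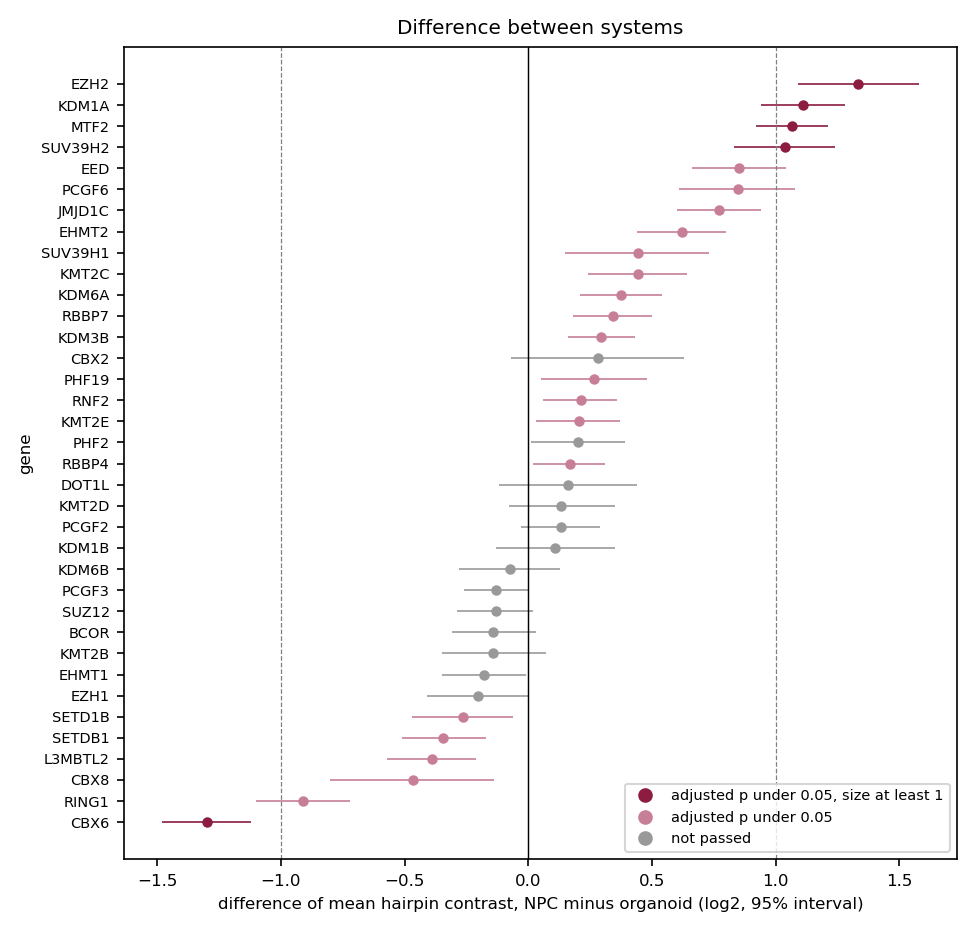
Difference of the mean hairpin effect, NPCs minus organoids, as log2 with its 95% interval (x axis) for 36 members (y axis), coloured by whether the member was called, passed or did not pass. EZH2 is at the top with 1.33 and CBX6 at the bottom with -1.30.

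Ratios of paralogs within a library are barely touched by how libraries are scaled (a prior count of 2 was added). The log2 ratio of EZH2 to EZH1 CPM in the NPCs was 0.91 ± 0.067 in NC, 2.09 ± 0.14 in sh1 and 2.18 ± 0.16 in sh4 libraries (SD, n = 5 each). The difference of 1.18 with sh1 and 1.27 with sh4 had an exact two-sided permutation p = 0.00794 each (adjusted p = 0.0265 over 20 ratio tests), the smallest that 5 against 5 libraries can give. EZH2 and EZH1 had each already stood apart from NC, in opposite directions, so this p was fixed beforehand and adds no support. Because the NPC table looks selected for genes that differ, the p-values of the NPC ratios are given as descriptions. KDM6A against KDM6B was -0.37 in NC, 0.72 in sh1 and 0.25 in sh4 libraries, and PHF19 against MTF2 was -1.22, -0.84 and -0.67, each at the same exact permutation p. The PHF19 to MTF2 value with sh1 did not pass whichever NC replicate was left out (exact permutation p adjusted to 0.053). The ratio of SUV39H1 to SUV39H2 differed by -0.12 with sh1 and -0.10 with sh4 (exact permutation p = 0.452 and 0.159, adjusted p = 0.502 and 0.212).

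In the organoids 3 libraries against 3 cannot give an exact permutation p below 0.1 (adjusted p = 0.143), so the values there are descriptions. The EZH2 to EZH1 ratio differed from NC by -0.13 in the libraries labelled sh1 and by -0.53 in those labelled sh4. The ratio of PHF19 to MTF2 was higher by 1.15 and 1.35. For CBX2 against CBX7 the difference was -0.11 in the libraries labelled sh1 and -2.47 in those labelled sh4, for SUV39H1 against SUV39H2 -0.04 and 1.01, for KDM6A against KDM6B -0.14 and 0.98, and for KDM5B against KDM5A -0.19 and -0.59.

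**Figure D5:**
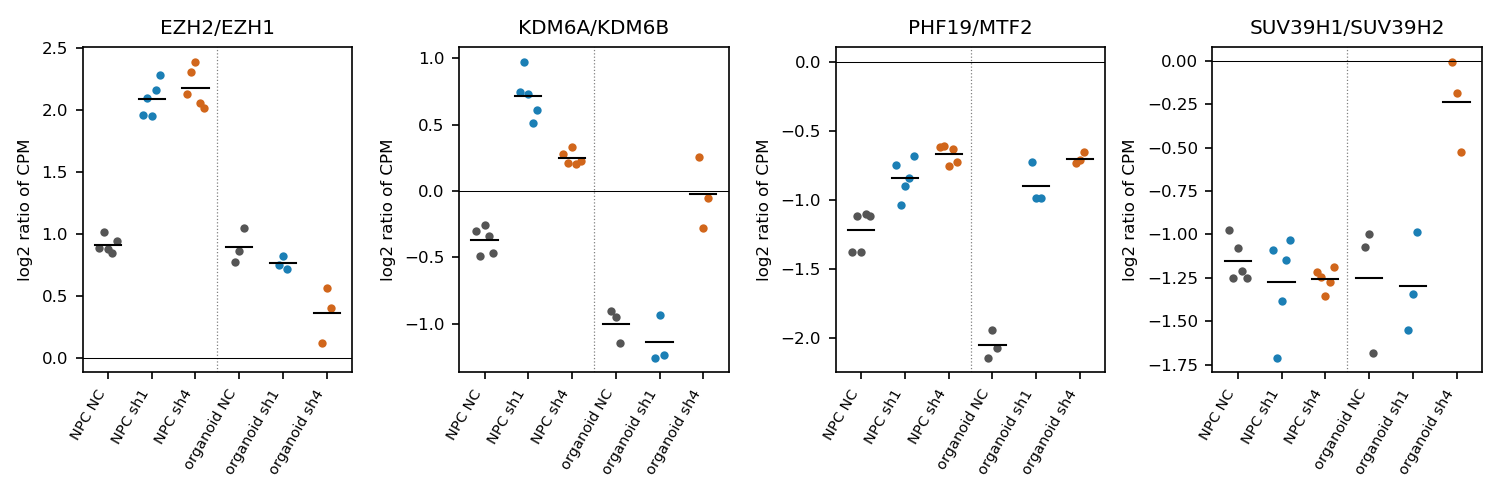
Log2 ratio of CPM of 2 paralogs per library (points, y axis) with the group mean (bar) in the groups NC, sh1 and sh4 (x axis) of NPCs and organoids, for EZH2 over EZH1, KDM6A over KDM6B, PHF19 over MTF2 and SUV39H1 over SUV39H2. In the NPCs the EZH2 over EZH1 ratio rises from a mean of 0.91 to 2.09 and 2.18, and in the organoids the PHF19 over MTF2 ratio is 1.15 and 1.35 higher than with NC.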

How the data were processed

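Poly(A)-selected RNA from 24 libraries was sequenced. The authors deposited 1 table of expected counts per system, 82.4% whole values in the NPCs and 91% in the organoids. They used STAR, featureCounts and GRCh38.p13, per the submitters' processing notes, and versions and strand setting are not given in the sources used here. Counts were rounded to whole numbers. Fractional counts occurred in 8 of 36 NPC members and 14 of 54 organoid members.

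Genes were filtered with filterByExpr (minimum count 10), scaled by TMM and tested with edgeR 4.0.16 in R 4.3.3, with the 3 groups of a system in one fit and Benjamini-Hochberg adjustment over all tested genes. The difference between systems was fitted over all 6 groups. Alternatives were library size alone, relative log expression scaling, no filter, a minimum of 50 counts, DESeq2 1.42.0, a replicate block, only the groups compared, and leaving out each library. On simulated data the steps recovered 98.9% of NPC genes (9738 genes) and 72% of organoid genes (18354 genes) changed by 1 on the log2 scale, and 100% and 97.8% of those changed by 2. Recovery meant an edgeR adjusted p under 0.05 in the right direction, not a call. The simulated spread followed the fitted trend alone, and a small set of genes above a low NC level was changed, in sh1 only. That setting is simpler than the real data, where nearly all NPC genes passed with sh1.

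Every member is named. Values per library are given for called members, for up to 6 members at either end of the mean log2 fold change among those that passed in one direction with both hairpins, and for EZH2, EZH1 and SUZ12. From other lists up to 3 genes are named. A gene that this rule picked is not reported here, and list counts include it. The members and lists were chosen with earlier results of these data known. All replicate pairs differed by more than sampling noise (chi-square over its degrees of freedom at least 2.6). Gene positions are from GENCODE 29 (GRCh38), and levels per length use the union of exons. Genes that the deposited NPC table does not list were not analysed here in the NPCs.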

Additional observations from a re-analysis of the deposited data

Results flagged for a closer look

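Outlying libraries were looked for in 108 groups of NPC libraries (Dixon's test at 95%), where chance gives about 1 in 20, and 5 were found. NC replicate 5 held 53.6 CPM of L3MBTL2, below the other 4 at 59.0 to 60.3. EHMT2 had a low library, sh1 replicate 2 at 104 CPM against 123 to 127, and a high one, sh4 replicate 3 at 128 CPM against 110 to 115. The library sh4 replicate 1 was high in 2 H3K9 demethylase genes, JMJD1C at 173 CPM against 148 to 154 and PHF2 at 75.6 CPM against 65.3 to 67.8. None of these 4 genes was called.

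The hairpin effect differed between NPCs and organoids, by the interaction term, by at least 2-fold for 5 members. EZH2 (1.33), KDM1A (1.11), MTF2 (1.07) and SUV39H2 (1.04) had the more positive log2 value in the NPCs, and CBX6 (-1.30) the more negative one. Each of the 4 rose in the NPCs, and CBX6 fell there. The tissue, the measured KDM2A loss and the cell type markers differ between the systems and cannot be told apart.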

How the results depend on the processing

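With library size alone the direction turned for RBBP4 (-0.038), RNF2 (-0.024) and KDM3B (-0.008) with sh1 and for KDM3B with sh4 (-0.135) in the NPCs, and for RBBP7 in the organoid libraries labelled sh4 (-0.034), and the cause was not tested. The same scaling left 9 higher NPC members with sh1 in place of 15, 2 higher organoid members labelled sh4 in place of 6, and 2 in place of 5 lower in the organoids labelled sh1 against sh4. That last count was 3 with no filter, with the replicate block and with only the groups compared. The other counts of members that passed stayed within 1.5 times under scaling, filter, DESeq2 and group choice, except the one below. Called members in the NPCs, 0 with each hairpin, were 2 with sh1 and 1 with sh4 with library size alone, 1 and 1 with the stricter filter, and 0 and 1 with relative log expression scaling and with DESeq2, and CBX8 with sh4 also reached -1.007 with only the groups compared. With library size alone they were 21 in place of 9 and 7 in place of 4 in the organoids labelled sh4 and in sh1 against sh4. Over all 19704 tested genes the same scaling called 7375 in place of 6998 and 3990 in place of 3748.

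Replicate numbers are shared between groups. Deviations of same-numbered libraries from their group means had correlations of -0.10 to 0.39 in 15 NPC pairs and -0.16 to 0.04 in 9 organoid pairs. For other numbers they were -0.48 to 0.38 and -0.18 to 0.19. These ranges overlap, so they cannot decide whether a shared number marks a pair or a batch, and the main fits used no pairing. The replicate block gave 5 lower NPC members in sh1 against sh4 in place of 3.

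Leaving out 1 library at a time gave 2 to 8 members higher in the NPC comparison of sh1 with sh4, 12 to 18 lower in the organoids labelled sh1 (12 without sh1 replicate 1, beside 19), and 3 to 5 lower in the organoids labelled sh1 against sh4. The NPC ratio of PHF19 to MTF2 with sh1 ranged from 0.34 to 0.43 (exact permutation p adjusted to 0.0265 to 0.053), and the organoid ratios labelled sh1 of SUV39H1 to SUV39H2 from -0.259 to 0.086 and of CBX2 to CBX7 from -0.334 to 0.084. With 3 libraries per group in the organoids, changes of 1 on the log2 scale were recovered less often in simulated data than in the NPCs.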
